A study of Mus musculus with 8 samples.

Results

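The genes described here are the 10 members of the AP-1 and Egr families of immediate-early transcription factors, taken by gene name: Fos, Fosb, Fosl1, Fosl2, Jun, Junb, Jund, Egr1, Egr2 and Egr3. All 10 were found by name among the 17091 features of the deposited table. They were followed in immortalised mouse skin fibroblasts, cells adapted to continuous culture, of 4 groups with 2 libraries each. The groups were KO cells in hypoxia, KO cells in normoxia, WT cells in hypoxia and WT cells in normoxia. Hypoxia was 1% oxygen and normoxia was 21% oxygen, each for 24 hours. KO libraries came from cells of mice labelled C57BL/6 (mir210lox/lox) and WT libraries from cells of C57BL/6 (WT) mice. The labels name no Cre recombinase for the lox allele and do not say how many lines or cultures were used, so KO is used as the name of the group. The p values below rest on the scatter of 2 libraries a group, and that scatter could be technical.

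AP-1 is a dimer of basic leucine zipper proteins in which a Jun protein pairs with a Fos protein or with another Jun protein. Fos and Fosb carry strong activation domains, while Fosl1 and Fosl2 lack a comparable one, so the mix of subunits shapes what the dimer does. Egr proteins are zinc-finger factors that bind GC-rich sites. In fibroblasts Fos, Egr1 and Egr2 are textbook immediate-early genes: growth factors switch them on within minutes through ERK, serum response factor and CREB, and their short-lived transcripts then fall again. The libraries here were made from cells held in their oxygen level far longer than that early peak lasts.

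Values are the authors' normalised read counts. Mir210, the gene of the microRNA that the KO label names, was at 1, the floor of the table, in all 4 KO and all 4 WT libraries, so these values do not check the genotype labels. The low values in each library were spaced as rounded multiples of a fixed worth per read, applied to the read number plus 1. On that spacing the libraries held an estimated 6.25 M to 11.75 M reads, and a value of 1 stands for no read or, in the deeper libraries, at most 1 read. The summed level of 10 fibroblast markers was 42989 to 57511 per library, against 19 to 40 for the 5 leukocyte markers in the table, 13 to 45 for 5 of endothelium, 27 to 65 for 6 of keratinocytes and epithelium and 32 to 65 for 3 of melanocytes and Schwann cells. Emcn of endothelium and Krt5 and Krt1 of keratinocytes were at 1 in every library. Of the 10 fibroblast markers, 2 (Col3a1 and Dcn) were lower in all KO than in all WT libraries, 0 were higher and 8 overlapped, and Dcn was at 12 to 25 in KO and 40 to 93 in WT. Among those that overlapped, Lum (1 to 4 in KO and 4 to 36 in WT) and Fap (4 to 7 and 7 to 40) only met at an end value. Of the 6 markers of keratinocytes and epithelium, 1 (Cdh1) was higher in all KO libraries, at 21 to 38 in KO and 8 to 14 in WT, 0 were lower and 5 overlapped. Of all 17091 features 1.57% had all KO libraries above all WT libraries, and the share with the opposite order was not computed. The part of these marker differences in the results below was not tested. Levels in bulk RNA cannot tell fewer expressing cells from less RNA per cell. The transcript-length trend of a library, its change in log2 level per doubling of transcript length, was lowest in KO normoxia replicate 1 (-0.17) and WT hypoxia replicate 2 (-0.14) and highest in KO normoxia replicate 2 (0.16). All 5 check genes of the hypoxia-inducible factor HIF passed the test in both genotypes, for example Egln3, a HIF prolyl hydroxylase, by a log2 fold change of 3.86 in KO and 4.33 in WT. Of all tested genes 0.0578% were called higher in hypoxia in KO and 0.107% in WT. The check genes were chosen with earlier results of these data known, so their passing is not an independent check.

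Levels were compared between members per kilobase of the longest annotated transcript. Fosl2 was highest with a mean of 229.3 ± 33.6 normalised reads per kb (SD over all 8 libraries), followed by Jun (201.4 ± 35.6), Junb (190.6 ± 27.3), Jund (143.9 ± 39.5) and Fosl1 (87.1 ± 28.3). Egr1 (22.1 ± 6.3), Fos (13.8 ± 10.7) and Egr2 (11.2 ± 3.9) formed a lower tier, and Fosb (1.9 ± 1.1) and Egr3 (1.0 ± 0.7) were near the floor. The ranges of Fosl2, Jun, Junb and Jund overlapped, as did those of Egr1, Fos and Egr2. Fosl1 did not go below 47.7 per kb in any library, above the highest library of Egr1 (28.5), Fos (37.0) and Egr2 (16.2). The mean per kb of Fosl2 stood at percentile 77.8 of 11268 tested genes, that of Egr1 at percentile 23.6 and that of Fos at percentile 17.1. Fosl2 and the 3 Jun genes supplied most of the AP-1 level per kb. The annotation used for length gives Jund as 1.668 kb, while RefSeq starts the gene further upstream, at 70697739, so its level per kb depends on that choice.

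**Figure D1:**
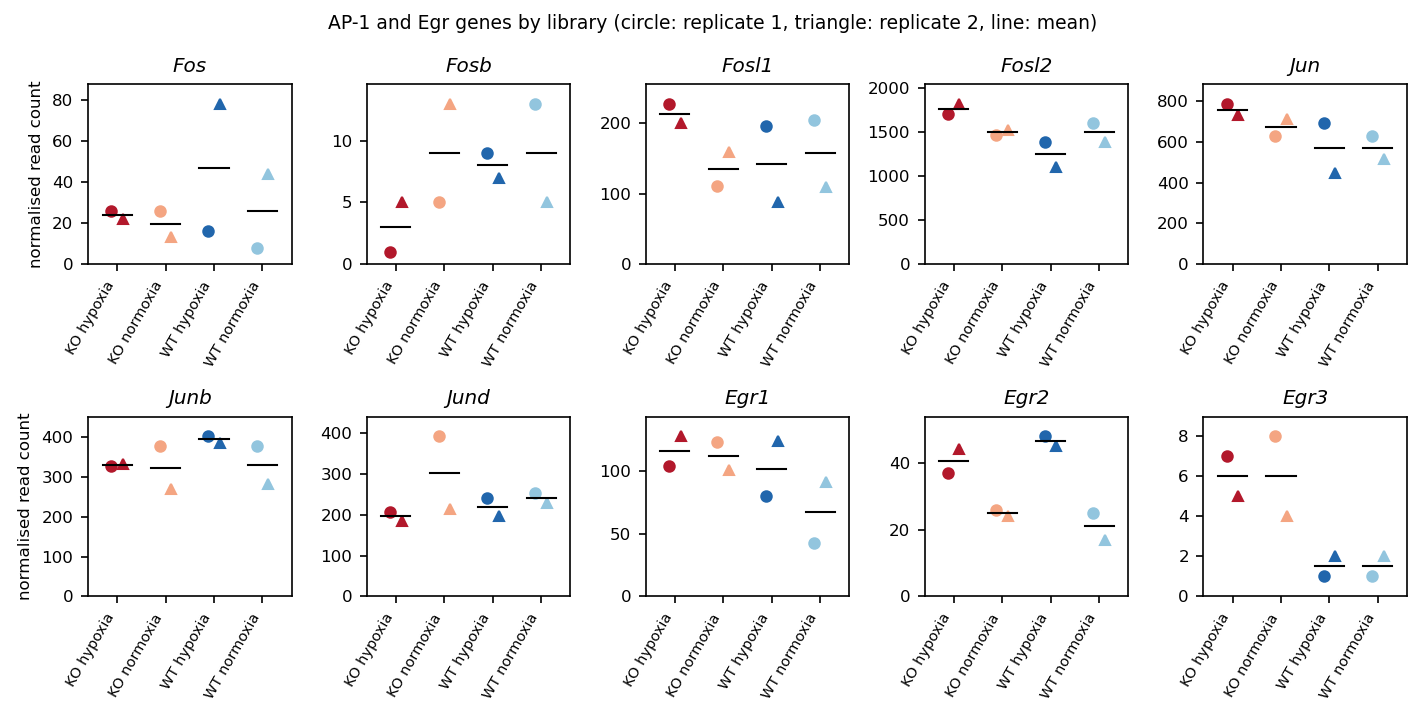
Normalised read counts (y axis, from 0) of the 10 genes in the 4 groups, with replicate 1 as a circle, replicate 2 as a triangle and the group mean as a line. The hypoxia libraries of Egr2 (37 to 48) all lie above its normoxia libraries (17 to 26), and the WT libraries of Fos spread from 8 to 78.

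Of the 9 members that could be tested, 0 passed the test in any of the 6 comparisons (limma on log2(value + 1), Benjamini-Hochberg adjusted p under 0.05 over 12107 genes). In hypoxia against normoxia over both genotypes 0.363% of all tested genes were called higher and 0% lower. In WT alone these shares were 0.107% and 0%, and in KO alone 0.0578% and 0%. For KO against WT at either oxygen level, and for the difference of the hypoxia responses, 0% were called in either direction. At an unadjusted p under 0.05 in either direction, the members counted were 1 in WT (Egr2, higher in hypoxia) and 1 over both genotypes (Egr2 again), where 6.33% and 5.29% of all genes were. For KO against WT in hypoxia there was 1 (Fosl2, higher in KO), where 7.52% of all genes were. There were 0 in KO alone, in KO against WT in normoxia and in the difference of responses, where 3.2%, 3% and 3.14% of all genes were. Egr3 was not tested because it did not reach a value of 10 in any library.

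Egr2, a zinc-finger factor best known from Schwann cell myelination and also induced by serum in fibroblasts, had the smallest p of the members for hypoxia. Its gene spans chr10:67535475-67542188, plus strand (GRCm38). In KO cells it was at 37 and 44 in hypoxia, against 26 and 24 in normoxia (replicates 1 and 2). In WT cells it was at 48 and 45 in hypoxia, against 25 and 17 in normoxia. All hypoxia libraries stood above all normoxia libraries. Of all tested genes 2.06% had that order over both genotypes and 1.65% had the opposite one. Group means were 40.5 ± 4.95 in KO hypoxia, 25.0 ± 1.41 in KO normoxia, 46.5 ± 2.12 in WT hypoxia and 21.0 ± 5.66 in WT normoxia (SD, n = 2 each).

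The log2 fold change of Egr2 over both genotypes was 0.90 ± 0.25 (SE), a fold of 1.87, with a 95% confidence interval of 0.35 to 1.46. Its unadjusted p was 0.00459, rank 112 of 12107 genes, and its limma adjusted p was 0.496. Within WT the log2 fold change was 1.13 ± 0.35 (limma adjusted p = 0.767) and within KO it was 0.67 ± 0.35 (limma adjusted p = 0.916). The difference between these responses, KO minus WT, was -0.46 with a 95% confidence interval of -1.57 to 0.65. It was -0.20 without WT normoxia replicate 2 and -0.73 without WT normoxia replicate 1. The values rest on few reads, from an estimated 13 in WT normoxia replicate 2 to about 58 in KO hypoxia replicate 2. Counting error alone allows 9.4 to 27.6 on the value scale for the 17 of WT normoxia replicate 2 and 32.9 to 60.8 for the 45 of WT hypoxia replicate 2.

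The promoters of 7 of the 10 members were in the RefSeq table (GRCm38.p6), each window running from 250 bases before to 50 after a start site. That of Egr2 is shown because it is the member with separated oxygen groups, and those of Fos and Jun because they are the founding members of their families and hold other motifs. Capitals mark matches, on either strand, to the CArG box (the site of serum response factor), to TGACG (the half-site of CREB-type factors), to TGACNTCA (the full site, with any base in its middle), to TGANTCA (the classic AP-1 site), to ACGTG (the core of HIF sites) and to GCGNGGGCG (the Egr site). TGACG overlaps TGACNTCA where N is G.
Egr2, chr10:67537619-67537918, plus strand: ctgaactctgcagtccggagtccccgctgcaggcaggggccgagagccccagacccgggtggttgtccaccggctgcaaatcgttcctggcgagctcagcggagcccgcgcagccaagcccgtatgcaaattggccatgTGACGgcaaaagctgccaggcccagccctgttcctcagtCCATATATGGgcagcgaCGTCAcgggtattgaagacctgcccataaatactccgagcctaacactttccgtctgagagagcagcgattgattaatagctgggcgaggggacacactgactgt
Fos, chr12:85473640-85473939, plus strand: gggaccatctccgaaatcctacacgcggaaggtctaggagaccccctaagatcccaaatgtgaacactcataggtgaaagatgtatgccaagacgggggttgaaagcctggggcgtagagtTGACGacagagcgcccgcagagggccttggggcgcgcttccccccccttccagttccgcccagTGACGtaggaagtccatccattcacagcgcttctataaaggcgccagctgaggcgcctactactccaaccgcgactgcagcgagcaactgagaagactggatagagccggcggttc
Jun, chr4:95052173-95052472, minus strand: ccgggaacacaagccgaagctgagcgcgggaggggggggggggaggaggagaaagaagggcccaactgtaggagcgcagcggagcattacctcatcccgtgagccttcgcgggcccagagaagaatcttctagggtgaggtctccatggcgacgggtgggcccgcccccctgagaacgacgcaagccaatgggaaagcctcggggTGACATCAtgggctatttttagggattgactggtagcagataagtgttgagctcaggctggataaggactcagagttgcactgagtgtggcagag

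In the Egr2 window a CArG box, CCATATATGG, begins 72 bases before the start site and lies between 2 TGACG half-sites. A CArG box is present in 1.6% of 32851 promoter windows of this length, and TGACG in 20.8%. The Fos window held TGACG at 129 and 66 bases before the start, and no CArG box in these letters. Sequence further than 250 bases before the start was not searched, so a site there would be missed. The Jun window held TGACATCA, a match to TGACNTCA, which 8.8% of windows hold. The windows of Fosb and Junb each held TGACG, and those of Fosb and Fosl2 each held the Egr site GCGGGGGCG, a motif found in 5.6% of windows. ACGTG, present in 19.6% of windows, was found for Jund and for the most upstream of the 5 annotated starts of Egr2 and not in the 3 windows printed. TGANTCA, present in 7.8% of windows, was in none of the members' windows. These matches describe the sequence and carry no measurement of binding.

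Egr1, a serum- and stress-induced zinc-finger factor (chr18:34859823-34864984, plus strand), was at 104 and 128 in KO hypoxia, against 123 and 101 in KO normoxia. It was at 80 and 124 in WT hypoxia, against 43 and 91 in WT normoxia. The oxygen groups overlapped in both genotypes, and the lowest value belonged to WT normoxia replicate 1. The log2 fold change for hypoxia was 0.05 ± 0.38 in KO and 0.66 ± 0.38 in WT (limma adjusted p = 0.985 and 0.814). In normoxia both KO libraries stood above both WT libraries, an order that 10% of all tested genes had, while 11% had the opposite one, and the log2 fold change was 0.82 ± 0.38 with a 95% confidence interval of -0.02 to 1.66 (limma adjusted p = 1). Single WT normoxia libraries moved these values: without replicate 1 the KO over WT change was 0.29 and the hypoxia change in WT 0.13, and without replicate 2 they were 1.35 and 1.19. Without WT hypoxia replicate 2 the hypoxia change in WT was 0.35. In hypoxia the genotypes overlapped.

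Egr3, a further member of the family known from muscle spindles and lymphocytes (chr14:70077203-70082614, plus strand), was at 7 and 5 in KO hypoxia, 8 and 4 in KO normoxia, 1 and 2 in WT hypoxia and 1 and 2 in WT normoxia. All 4 KO libraries stood above all 4 WT libraries. The values rest on an estimated 20 reads in the KO libraries together, 4 to 6 in each, and on 2 reads in the WT libraries together, out of an estimated 35.05 M reads in KO and 32.87 M reads in WT. Of the 17091 features 1.57% had all KO libraries above all WT libraries, and of the 4984 features too low for the test 0.642% had. With no filter on low values, a setting chosen after the data were seen, the log2 fold change of KO over WT was 1.48 ± 0.29 (SE) on the log2(value + 1) scale, with an unadjusted p of 0.0044 and a limma adjusted p of 0.436. In that fit 0.176% of features were called.

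**Figure D2:**
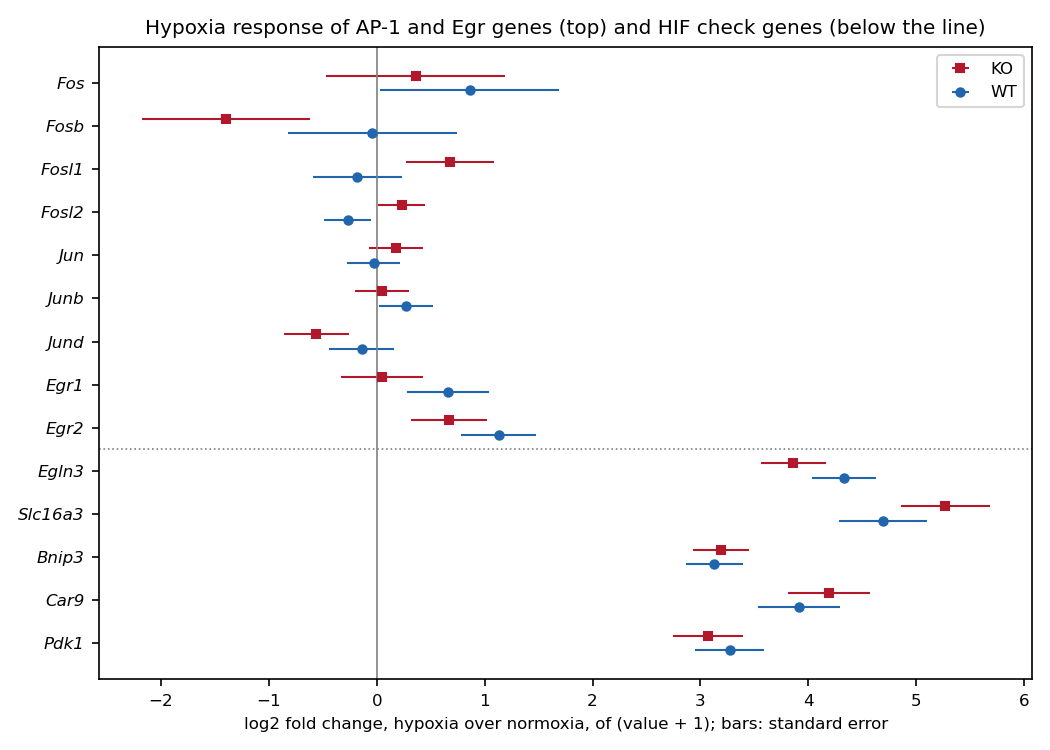
Log2 fold change of hypoxia over normoxia (x axis, with standard errors) for the 9 tested members and, below the dotted line, for the 5 HIF check genes, in KO (squares) and WT (circles). The members lie between -1.40 and 1.13, while the HIF check genes lie between 3.07 and 5.27.

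Fos, the partner of Jun in the classic AP-1 dimer (chr12:85473890-85477273, plus strand), was at 26 and 22 in KO hypoxia, against 26 and 13 in KO normoxia. It was at 16 and 78 in WT hypoxia, against 8 and 44 in WT normoxia. The libraries of a WT group differed more from each other than the oxygen groups did: the ratio of the higher to the lower was 4.88 in WT hypoxia and 5.5 in WT normoxia, against 1.18 in KO hypoxia and 2.0 in KO normoxia. In hypoxia its log2 fold change was 0.36 ± 0.83 in KO, 0.86 ± 0.83 in WT and 0.61 ± 0.58 over both (limma adjusted p = 0.954, 0.886 and 0.925). The estimated reads were 9 in WT normoxia replicate 1 and 73 in WT hypoxia replicate 2, whose counting intervals on the value scale, 4.1 to 14.3 and 61.3 to 97.6, do not meet. Without WT hypoxia replicate 2 the WT fold change turned to -0.24, and without WT normoxia replicate 1 to -0.30. With single libraries left out, the change over both genotypes ranged from 0.03, without WT normoxia replicate 1, to 1.19, without WT normoxia replicate 2. Leaving out 1 WT library sets libraries of unequal replicate numbers against each other. Between WT libraries of the same number Fos was at 16 in hypoxia, against 8 in normoxia, for replicate 1 and at 78 in hypoxia, against 44 in normoxia, for replicate 2, though the labels do not say that the numbers pair libraries.

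Fosb, which yields both an activator and the truncated, long-lived form known as delta-FosB (chr7:19302696-19310051, minus strand), was at 1 and 5 in KO hypoxia, against 5 and 13 in KO normoxia. It was at 9 and 7 in WT hypoxia, against 13 and 5 in WT normoxia. These values rest on 0 to about 19 reads per library. A log2 fold change of -1.40 ± 0.78 was found in KO and one of -0.72 ± 0.55 over both genotypes (limma adjusted p = 0.916 and 0.922). With single libraries left out these ranged from -2.20 (without KO hypoxia replicate 2) to -0.61 (without KO hypoxia replicate 1) in KO and from -1.12 to -0.32 over both, without the same libraries. Without WT normoxia replicate 1 or KO normoxia replicate 2 Fosb was not tested, so these ranges leave out those libraries. With a pseudocount of 0 and of 8 the change in KO was -1.85 and -0.61.

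Fosl1, or Fra-1, a Fos relative typical of migrating and transformed cells (chr19:5447547-5455946, plus strand), was at 228 and 200 in KO hypoxia, against 111 and 160 in KO normoxia. It was at 196 and 89 in WT hypoxia, against 205 and 110 in WT normoxia. The KO groups did not overlap and the WT groups did. In KO 15.9% of all tested genes had both hypoxia libraries above both normoxia libraries, and 16.3% had them below. Hypoxia in KO gave a log2 fold change of 0.68 ± 0.41 (limma adjusted p = 0.916), and the difference of responses, KO minus WT, was 0.86 with a 95% confidence interval of -0.42 to 2.14. Between KO and WT in hypoxia the log2 fold change was 0.69 ± 0.41 (limma adjusted p = 0.655), and it was 0.12 without WT hypoxia replicate 2 and 1.25 without WT hypoxia replicate 1. The difference of responses was 0.29 and 1.42 without these libraries, and 0.41 without WT normoxia replicate 1. Without KO normoxia replicate 1 the hypoxia change in KO was 0.41.

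Fosl2, or Fra-2, the most abundant member and a regulator of matrix genes (chr5:32135801-32157842, plus strand), was at 1699 and 1819 in KO hypoxia, against 1469 and 1526 in KO normoxia. It was at 1391 and 1101 in WT hypoxia, against 1604 and 1384 in WT normoxia. Both KO hypoxia libraries stood above both KO normoxia libraries, as for 15.9% of all tested genes, with 16.3% the other way round. The WT groups overlapped by 7 normalised reads. Its hypoxia log2 fold change was 0.23 ± 0.22 in KO and -0.27 ± 0.22 in WT, and their difference was 0.50 (95% confidence interval -0.19 to 1.19, limma adjusted p = 0.857). The WT change was -0.10 without WT hypoxia replicate 2 and -0.44 without WT hypoxia replicate 1.

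Set against WT in hypoxia, Fosl2 in KO had a log2 fold change of 0.51 ± 0.22 (unadjusted p = 0.0426, limma adjusted p = 0.642). In hypoxia 3 tested members (Fosl1, Fosl2 and Jun) had both KO libraries above both WT libraries and 3 (Fosb, Junb and Egr2) had them below, orders found in 26.2% and 24.5% of all tested genes. The lowest Fosl2 value was in WT hypoxia replicate 2, which also had the second lowest length trend, and Fosl2 has a long transcript of 6.537 kb. With the length trend of each library removed, the KO over WT log2 fold change in hypoxia was 0.33, the hypoxia change in WT was -0.07 and that in KO was 0.17.

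Jun, the founding AP-1 subunit and a target of the JNK kinases (chr4:95049034-95052222, minus strand), was at 786 and 729 in KO hypoxia, against 629 and 711 in KO normoxia. It was at 694 and 446 in WT hypoxia, against 627 and 516 in WT normoxia. In each condition both KO libraries stood above both WT libraries, by a margin of 2 in normoxia. That order was found in 10% of all tested genes in normoxia and in 26.2% in hypoxia, and the opposite one in 11% and 24.5%. The log2 fold change for hypoxia was 0.18 ± 0.25 in KO and 0.07 ± 0.18 over both genotypes, with a 95% confidence interval of -0.33 to 0.47 over both. KO over WT in hypoxia was 0.44 ± 0.25 (limma adjusted p = 0.655), with 0.13 without WT hypoxia replicate 2 and 0.76 without WT hypoxia replicate 1.

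Junb, a weaker activator that can hold back Jun (chr8:84974484-84978718, minus strand), was at 328 and 333 in KO hypoxia, against 377 and 270 in KO normoxia. It was at 403 and 386 in WT hypoxia, against 379 and 283 in WT normoxia. Both WT hypoxia libraries stood above both WT normoxia libraries, as they did for 18.9% of all tested genes, with 19.9% the other way round, with a log2 fold change of 0.27 ± 0.25 (limma adjusted p = 0.881). That change was 0.06 without WT normoxia replicate 2 and 0.48 without WT normoxia replicate 1. Its KO over WT log2 fold change in hypoxia was -0.25 ± 0.25 (limma adjusted p = 0.766).

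Jund, the Jun protein present in resting cells (chr8:70698949-70700616, plus strand), was at 206 and 186 in KO hypoxia, against 393 and 213 in KO normoxia. It was at 242 and 198 in WT hypoxia, against 254 and 228 in WT normoxia. It was the only tested member with both KO hypoxia libraries below both KO normoxia libraries, while 4 (Fosl1, Fosl2, Jun and Egr2) had them above, orders found in 16.3% and 15.9% of all tested genes. The log2 fold change was -0.56 ± 0.30 in KO and -0.35 ± 0.21 over both genotypes (limma adjusted p = 0.916 and 0.922). The value of 393 belonged to KO normoxia replicate 1, the library with the lowest length trend, and Jund has a short transcript of 1.668 kb. Without KO normoxia replicate 1 the change was -0.12 in KO and -0.13 over both genotypes. Without KO normoxia replicate 2 it was -0.57 over both genotypes, and in KO it was -1.0 and passed the test (limma adjusted p = 0.0473), and in that fit 758 genes passed in all. With the length trend removed the change in KO was -0.51.

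**Figure D3:**
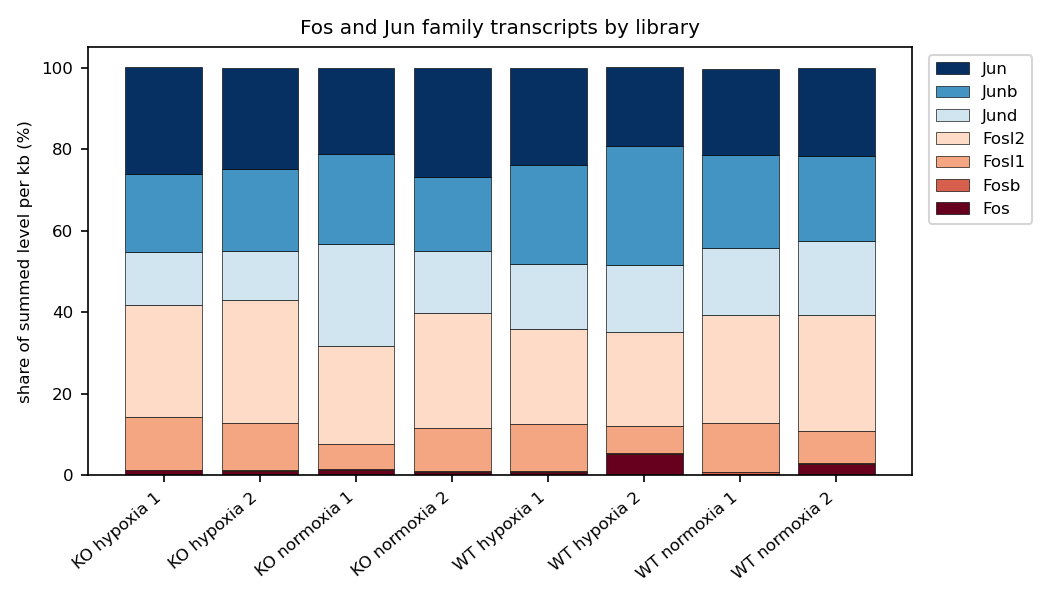
Share of each Fos and Jun family gene in their summed level per kb (y axis, %) in each library. With Jund taken at 1.668 kb, Jun family genes make up 56.9% to 68.3% and Fosl2 23.2% to 30.2%.

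With Jund taken at 1.668 kb, Fosl2, Jun, Junb and Jund were the leading AP-1 genes in every library. In KO hypoxia Jund was close to Fosl1, at 123.5 and 111.5 per kb, against 122.3 and 107.3 for Fosl1. A longer Jund transcript would put Jund lower, and all shares below depend on that length. Fos family genes held 41.7% and 43.1% of the summed level per kb in KO hypoxia, against 31.7% and 39.7% in KO normoxia. They held 35.9% and 35.1% in WT hypoxia, against 39.4% and 39.2% in WT normoxia. These shares were higher in hypoxia in KO and lower in hypoxia in WT, without overlap within a genotype, and this difference was not tested. Of single tested genes, 15.9% had both hypoxia libraries above both normoxia libraries in KO and 19.9% had them below in WT. How many had both orders was not counted. The libraries with the 3 lowest shares, KO normoxia replicate 1 and both WT hypoxia libraries, also had the 3 lowest length trends (-0.17, -0.09 and -0.14). With the length trend of each library removed, a setting chosen after the data were seen, the shares were 42.2% and 41.0% in KO hypoxia, against 34.9% and 37.1% in KO normoxia, and 37.3% and 37.5% in WT hypoxia, against 38.7% and 37.5% in WT normoxia. Fosl1 and Fosl2 made up most of the Fos family share in every library, and Fos reached 5.1% in WT hypoxia replicate 2 and at most 2.8% elsewhere. The low Fos family share of KO normoxia replicate 1 stood beside a Jund share of 25.1%, against 12.1% to 18.3% in the other libraries. The summed level ran from 727.0 per kb in WT hypoxia replicate 2 to 946.1 per kb in KO hypoxia replicate 1.

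The wider pathway was read from lists of textbook members. Among other AP-1 dimer partners, 0 of 8 tested genes passed in hypoxia over both genotypes, 6 had a positive change and the median log2 fold change was 0.12, against 0.00 over all tested genes. Maff, a small Maf protein, had the smallest p in that list. It was at 316 and 299 in KO hypoxia, against 240 and 208 in KO normoxia, and at 391 and 426 in WT hypoxia, against 287 and 323 in WT normoxia (log2 fold change 0.44 ± 0.15, limma adjusted p = 0.814). The stress-induced factor Atf3 had a change of 0.39 ± 0.20 (limma adjusted p = 0.922). The Egr co-repressors Nab1 and Nab2 had changes of -0.22 and -0.08. Serum response factor and its partners had 0 of 6 called, 4 positive and a median of 0.05, with Srf itself at -0.16 ± 0.21. Taken by genotype, the median of that list was 0.28 in KO (6 of 6 positive) and -0.19 in WT (1 of 6 positive), and that of the AP-1 partners 0.33 in KO (7 of 8) and -0.03 in WT (3 of 8), against 0.01 in KO and -0.02 in WT over all tested genes. Within the serum response factor list, Srf and Elk1 had KO changes of 0.00 and 0.01. KO normoxia replicates 1 and 2 differed for some genes: Elk4 was at 150 and 412 and Atf2 at 177 and 398. In KO hypoxia Elk4 was at 295 and 353 and Atf2 at 424 and 361. Srf (852 and 766) and Elk1 (195 and 157) were higher in KO normoxia replicate 1. The lists were not refitted without that library, and the differences between genotypes in these medians were not tested.

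The kinases and phosphatases upstream were read in the same way. Of 10 ERK brakes 0 passed, 6 were positive and the median was 0.09, and Dusp1, a phosphatase that switches off MAP kinases and is itself an immediate-early gene, had the smallest p with 0.33 ± 0.15 (unadjusted p = 0.0479, limma adjusted p = 0.922). Of 10 MAP kinases and their activators 0 passed, 5 were positive and the median was -0.02. Map2k1, the kinase MEK1 that activates ERK, was at 1625 and 1777 in KO hypoxia, against 860 and 897 in KO normoxia. It was at 1868 and 1534 in WT hypoxia, against 1138 and 1040 in WT normoxia. All hypoxia libraries of Map2k1 stood above all its normoxia libraries, as for 2.06% of all tested genes, with 1.65% the other way round. Named for the smallest p of its list, it had a log2 fold change over both genotypes of 0.79 ± 0.15 (unadjusted p = 3.2e-04, limma adjusted p = 0.0793). Its partner Map2k2, or MEK2, had a change of -0.41 ± 0.21 (limma adjusted p = 0.922).

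Other immediate-early genes had 0 of 14 called over both genotypes, 9 positive and a median of 0.09. Ier3, a stress-induced survival gene, was at 800 and 778 in KO hypoxia, against 579 and 601 in KO normoxia, and at 996 and 1146 in WT hypoxia, against 810 and 859 in WT normoxia (log2 fold change 0.39 ± 0.14, limma adjusted p = 0.859). Nr4a2, an orphan nuclear receptor, had a change of 0.93 ± 0.39 in KO and -0.08 ± 0.39 in WT (limma adjusted p = 0.916 and 0.984), and their difference was 1.00 ± 0.55 (limma adjusted p = 0.857). Its values were low, at 43 and 41 in KO hypoxia, against 16 and 29 in KO normoxia. In WT they were 24 and 26 in hypoxia, against 24 and 29 in normoxia. Of 10 tested genes with AP-1 sites 0 passed, 4 were positive and the median was -0.05. Hmox1, heme oxygenase 1, which also answers to NRF2, had the smallest p in that list, with a log2 fold change of -0.53 ± 0.16 (unadjusted p = 0.00877, limma adjusted p = 0.685). Ccnd1, cyclin D1, had -0.20 ± 0.16.

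Genes with patterns most like a member were found by Pearson's r of log2(value + 1) over the 8 libraries, among 12098 genes. The points of each r are the 8 libraries, and each r is the highest among many genes, so it describes these libraries only. For Fos they included Glt8d1 (r = 0.989) and Pik3ip1 (0.973), an inhibitor of PI3 kinase. Pik3ip1 was at 62 and 51 in KO hypoxia, 65 and 29 in KO normoxia, 44 and 159 in WT hypoxia and 32 and 94 in WT normoxia. For Egr1 they were 2510002D24Rik (0.972), Zfp467 (0.965) and Zc3h12a (0.959), the RNase Regnase-1. For Junb they were Podnl1 (0.977), Gpn3 (0.975) and Pskh1 (0.949), and for Fosl1 they were Krt80 (0.966), Htra1 (0.955) and Ankrd13c (0.955). Those of Egr2, shown after its values were seen, were Nfil3 (0.972), 1700011J10Rik (0.956) and Gpi1 (0.952), a glycolytic enzyme. Gpi1 was at 1475 and 1419 in KO hypoxia, 943 and 671 in KO normoxia, 1896 and 1795 in WT hypoxia and 934 and 678 in WT normoxia.

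**Figure D4:**
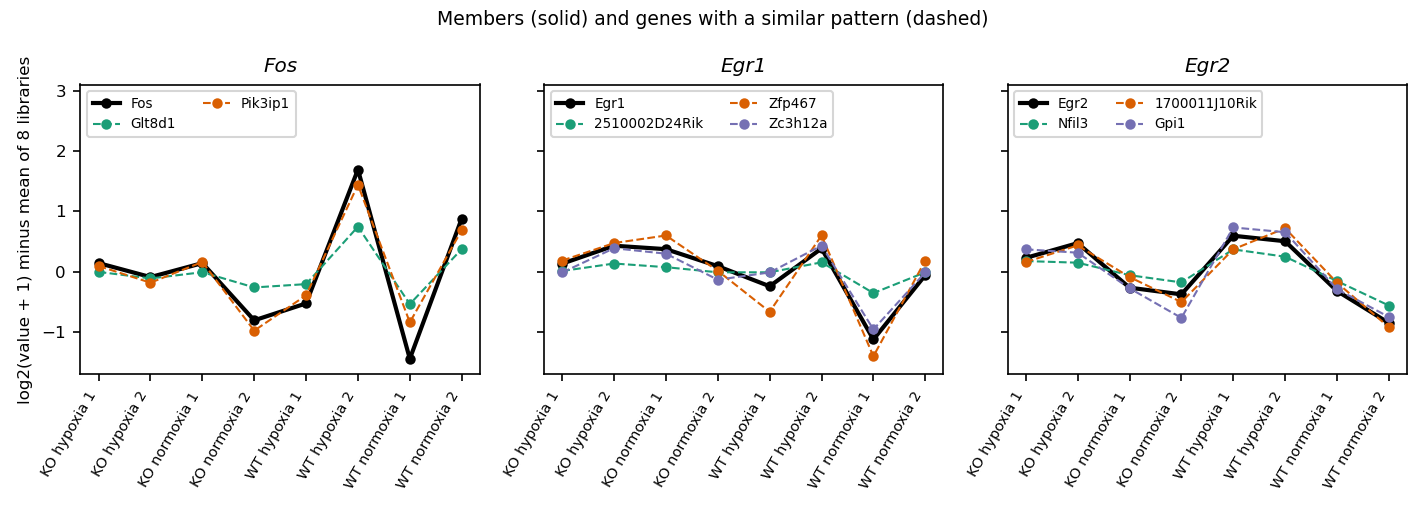
Log2(value + 1) minus the mean of the 8 libraries (y axis) for Fos, Egr1 and Egr2 (solid) and genes among the 3 with the highest Pearson's r to each (dashed). Lines join the libraries only to guide the eye. Egr2, Nfil3 and Gpi1 are high in the hypoxia libraries, while Fos and Pik3ip1 are highest in WT hypoxia replicate 2.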

How the data were processed

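Total RNA of 8 fibroblast samples was sequenced. The labels' protocols name a miRNeasy extraction and NEBNext small RNA reagents for the SOLiD platform. The deposited values are a score: the authors' normalised read counts, per the name of the table, rounded to whole numbers, with 1 as the lowest. No source used here gives the aligner, counting program, genome build, use of strand or method of normalization. Sample columns not used numbered 0.

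The 12107 genes that reached 10 in 2 or more libraries were tested with limma 3.58.1 in R 4.3.3 on log2(value + 1), which understates changes of low genes, with a trended variance and 4 group means over all 8 libraries. P values are two-sided, adjusted by Benjamini and Hochberg over these genes, with a threshold of 0.05. Rounding hides whole reads in the deeper libraries, so no count test was run. Read numbers are estimates from the spacing of low values, and their 95% Poisson intervals cover counting error only. Transcript lengths and positions are from GENCODE M21 (GRCm38).

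The members and lists were chosen with earlier results of these data known. Named genes are all members, the list genes that passed or had the smallest p over both genotypes (up to 3 a list), and the 3 genes most like Fos, Egr1, Junb and Fosl1; a few genes that these rules name are not reported here. Alternatives were the pseudocount, filter, TMM and quantile scaling, variance model, length trend, a replicate term and left-out libraries.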

Additional observations from a re-analysis of the deposited data

Results flagged for a closer look

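The share of the Fos family genes in the summed AP-1 level per kb differed between oxygen levels in opposite directions in the genotypes, with no overlap of the libraries within either. All shares take Jund at 1.668 kb and depend on that length. In KO it was 41.7% and 43.1% in hypoxia, against 31.7% and 39.7% in normoxia, a difference of means of 6.7 percentage points. In WT it was 35.9% and 35.1% in hypoxia, against 39.4% and 39.2% in normoxia, a difference of -3.8 points. The KO difference minus the WT difference was 10.5 points for the Fos family and -10.5 points for the Jun family, whose share is the remainder. The difference between the genotypes was not tested. Of single tested genes, 15.9% had both hypoxia libraries above both normoxia libraries in KO and 19.9% had them below in WT. How many had both orders was not counted. Without KO normoxia replicate 1, the library with the lowest share, the KO difference was 2.7 points and the KO difference minus the WT difference 6.5 points. Without KO normoxia replicate 2 they were 10.7 and 14.5 points. With the length trend of each library removed, the difference was 5.6 points in KO and -0.7 points in WT, and the KO difference minus the WT difference was 6.3 points. The WT groups were then no longer apart as rounded, at 37.3% and 37.5% in hypoxia, against 38.7% and 37.5% in normoxia.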

How the results depend on the processing

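The number of members that passed the test stayed at 0 in all 6 comparisons under every alternative, except that it was 0 to 1 for hypoxia in KO when single libraries were left out (Jund alone, without KO normoxia replicate 2). Direction turned, beyond single left-out libraries, only for Fos in WT, at -0.24 without WT hypoxia replicate 2 and KO normoxia replicate 1 together. With single libraries left out, the hypoxia change of Fos ranged from -0.30 to 2.03 in WT and from -0.12 to 0.83 in KO, that of Egr1 in KO from -0.10 to 0.20 and that of Jun over both genotypes from -0.09 to 0.23. Of 28 fold changes followed, all others kept their sign. Egr2 over both genotypes ranged from 0.77 to 1.03 with single libraries left out. Over all settings the number of genes that passed ran from 1 to 28 in WT (13 as reported), from 4 to 758 in KO (7), and from 12 to 56 over both genotypes (44). With no filter it was 19 and 14 for KO against WT in normoxia and hypoxia and 29 for the difference of responses (0 each as reported). The labels do not say that a replicate number marks a shared culture or day. Differences between libraries 1 and 2 correlated across genes between oxygen levels at 0.23 in KO and 0.57 in WT. Between the genotypes they correlated at 0.11 in normoxia and 0.02 in hypoxia. With a replicate block Egr2 over both genotypes stayed at 0.90 (limma adjusted p = 0.346), and 0 members passed. That block was a single term shared by both genotypes, so it cannot remove a replicate difference that is unlike in KO and WT. A block within each genotype was not fitted. At values under about 50, counting error limits Fos, Fosb, Egr2 and Egr3.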

Other observations

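Some genes with AP-1 sites spread between the WT libraries much as Fos did. They are named after their values were seen, and no test was made of this. Mmp3, a matrix protease, was at 22 and 33 in KO hypoxia, 3 and 25 in KO normoxia, 27 and 124 in WT hypoxia and 16 and 279 in WT normoxia (replicates 1 and 2). Il6, the cytokine interleukin 6, was at 1 and 3 in KO hypoxia, 1 and 2 in KO normoxia, 4 and 53 in WT hypoxia and 2 and 8 in WT normoxia. Spp1, the matrix protein osteopontin, was at 14831 and 14746 in KO hypoxia, 19529 and 18272 in KO normoxia, 11044 and 48610 in WT hypoxia and 13632 and 36987 in WT normoxia. Timp1, a protease inhibitor, was at 6258 and 5278 in KO hypoxia, 5963 and 6228 in KO normoxia, 5914 and 11616 in WT hypoxia and 5592 and 13000 in WT normoxia. In each case both WT libraries numbered 2 stood above both WT libraries numbered 1. Of the 13 listed genes with AP-1 sites 7 had that order and 3 (Mmp9, Plau and Plaur) had the opposite one, against 21.4% and 22.2% of all tested genes. Of the 9 tested members 2 had that order and 5 had the opposite one.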
